A study of Mus musculus with 6 samples.

Results

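Of 35 genes of the unfolded protein response and of endoplasmic reticulum (ER) stress, 34 were measured among 18417 named genes in human neuroblastoma tumours grown in mice. They were chosen by function from general knowledge, but with earlier results of these data known. The choice covers ER chaperones, disulfide isomerases, ER degradation factors, the stress sensors and the transcription factors and effectors of the ATF4 and ATF6 branches. PDIA3, a disulfide isomerase, was not measured, because both of its probe sets (groups of array probes read as 1 value) are also annotated to the pseudogene PDIA3P1. The tumours came from SK-N-BE(2), an established neuroblastoma line with MYCN amplification, placed in an adrenal gland of NSG mice, which have no T, B or natural killer cells. In the BL-8040 group, 3 mice received this inhibitor of the chemokine receptor CXCR4 at 400 µg under the skin on 14 consecutive days, starting 7 days after injection. The control group held 3 mice bearing the same xenograft; the labels call them controls but repeat the dosing text for them, and do not say what they received. Each tumour was read on 1 array of human probe sets. All tumours were grown from a single cell line in an immunodeficient host, and how much mouse RNA the array read was not measured. In a bulk tumour, fewer cells that express a gene and less RNA per cell cannot be told apart.

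The unfolded protein response adjusts the folding capacity of the ER to the load of new secretory and membrane proteins. Its sensors are PERK (encoded by EIF2AK3), IRE1 (ERN1) and ATF6. PERK slows translation and favours synthesis of the factor ATF4, IRE1 splices XBP1 mRNA into the form that encodes an active factor, and ATF6 is cut into one in the Golgi. These factors then raise transcripts of chaperones, of degradation genes and, under lasting stress, of the pro-apoptotic factor CHOP (DDIT3). Phosphorylation, ATF4 translation, XBP1 splicing and ATF6 cleavage are not read by this array, which gives a transcript signal per gene on the log2 scale.

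None of the 34 genes differed detectably between BL-8040 and control tumours. In limma, 0 members had a Benjamini-Hochberg adjusted p under 0.05, as did 0 of all 18417 genes (0%), and the smallest adjusted p of a member was 0.646. At an unadjusted limma p under 0.05 there were also 0 members, beside 1422 of all genes (7.72%), and the smallest unadjusted p of a member was 0.0676. The count of members under this unadjusted threshold was 1 under some other settings: SEC61B with trend and robust moderation, without BL-8040 replicate 1 or without control replicate 1, ATF5 without BL-8040 replicate 2 and HERPUD1 without BL-8040 replicate 3, beside 6.24% to 9.98% of all genes under those settings. The limma adjusted p was 0.498 or more in each of these cases. In 0 of the 34 members were the 3 treated values all above or all below the 3 control values, a separation seen in 14% of all genes. The exact permutation p of a member was 0.2 or more, where 3 against 3 arrays cannot give less than 0.1. Of the members, 30 had a mean signal at or above that of the median gene, and among the 9209 genes at least that bright the shares were 5.79% for an unadjusted p under 0.05 and 14.7% for groups that do not overlap.

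Member differences, BL-8040 minus control, ran from -0.18 to 0.16 log2 units, or from 0.885 to 1.12 times the control level. Their median was 0.02, beside -0.02 over all genes, with 19 members higher and 15 lower; 41.5% of all genes were higher, and 45.8% of those at or above the median signal. The median size of a difference, whatever its sign, was 0.06 in the members, 0.08 in all genes and 0.07 in those at or above the median signal. A difference of at least 0.3 log2 units either way was found in 0 members and in 2.91% of all genes, and one larger than that of any member in 15.2% of all genes and 11.8% of the brighter ones. With all arrays and the settings given here, all 34 of the 95% intervals held 0, and all lay within 0.5 log2 units of it: the lowest bound was -0.37, or 0.775 times the control level, and the highest was 0.45, or 1.36 times. Changes beyond these bounds in either direction are thus outside the intervals of all 34 members. The bounds are those of SEC61B and ATF5 and are not a limit of detection, which was not determined. In 28 of 34 members the difference was smaller than the larger of the 2 group SDs.

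**Figure D1:**
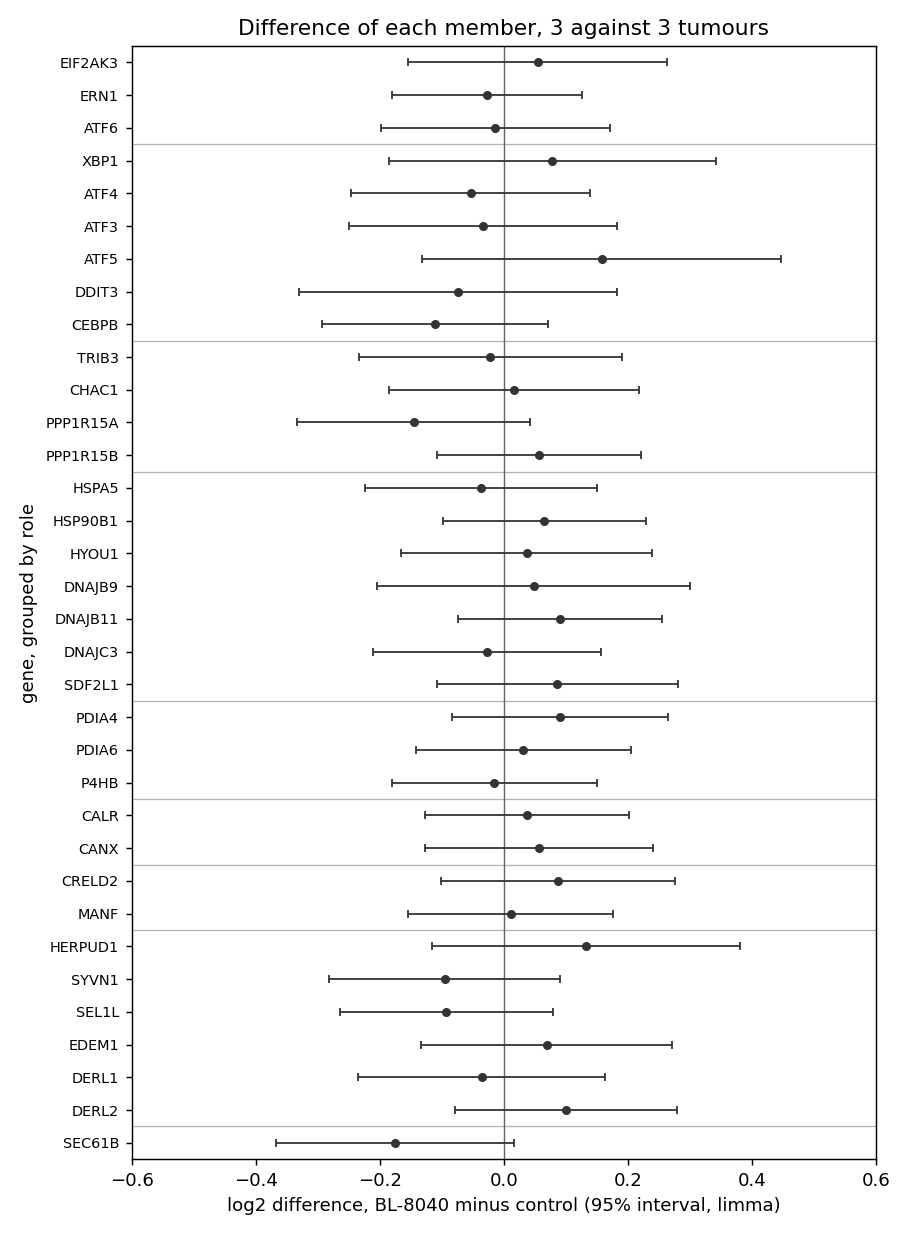
Log2 difference of each of the 34 members between BL-8040 and control tumours (points) with its 95% interval from limma (bars), 3 arrays per group; grey lines separate the roles. All 34 intervals cross 0, and the differences lie between -0.18 and 0.16.

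Each of the 3 stress sensors overlapped between the groups. EIF2AK3, the PERK kinase, had log2 signals of 7.20, 7.24 and 7.02 in BL-8040 replicates 1, 2 and 3 and of 7.11, 7.21 and 6.97 in control replicates 1, 2 and 3. The groups overlapped, and the difference was 0.05 ± 0.09 (SE; limma adjusted p = 0.878). ERN1, the IRE1 kinase and ribonuclease, gave 6.14, 6.20 and 6.21 in BL-8040 tumours and 6.18, 6.24 and 6.21 in controls. Its range over the 6 arrays, 0.104, was the smallest of all members, and its 95% interval ran from -0.18 to 0.13. ATF6, the membrane-bound factor, gave 8.76, 8.94 and 8.71 in BL-8040 tumours and 8.88, 8.79 and 8.79 in controls. Its treated values lay on both sides of the controls (difference -0.01 ± 0.08, SE; limma adjusted p = 0.966).

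Among the transcription factors, XBP1, which IRE1 activates by splicing, had signals of 9.60, 9.59 and 9.32 in BL-8040 tumours and of 9.22, 9.47 and 9.59 in controls. BL-8040 replicate 3 and control replicate 1 were low and the difference was 0.08 ± 0.12 (SE; limma adjusted p = 0.867). The signal sums over XBP1 splice forms as far as the probe set reads them, so it does not tell whether XBP1 was spliced. ATF4 gave 9.52, 9.48 and 9.27 in BL-8040 tumours and 9.44, 9.53 and 9.45 in controls. BL-8040 replicate 3 was the lowest array and the difference was -0.05, with a 95% interval from -0.25 to 0.14. The dimmer of the 2 ATF4 probe sets, which the rule passed over, differed by 0.11, with 9.42, 9.48 and 8.82 in BL-8040 tumours and 9.09, 9.14 and 9.16 in controls. The 2 probe sets thus disagreed in sign, but on both the lowest value was that of BL-8040 replicate 3.

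DDIT3, the CHOP gene, had signals of 7.36, 7.62 and 7.16 in BL-8040 tumours and of 7.41, 7.53 and 7.42 in controls. The treated tumours held both its highest and its lowest value, with an SD of 0.23 after BL-8040 and 0.06 in controls, and the difference was -0.07 ± 0.11 (SE; limma adjusted p = 0.869). ATF5, a relative of ATF4 that is translated under stress, had the largest positive difference of all members, 0.16, averaging 5.30 ± 0.22 in BL-8040 tumours and 5.14 ± 0.18 in control tumours (SD, n = 3 each; limma adjusted p = 0.745). ATF5 also had the widest range over the arrays, 0.502, and BL-8040 replicate 2, at 5.05, lay below control replicate 3, at 5.10. ATF3, which ATF4 induces, and CEBPB, a dimer partner of CHOP, differed by -0.03 and -0.11, with 95% intervals from -0.25 to 0.18 and from -0.29 to 0.07.

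Of the effectors of the ATF4 and CHOP branch, TRIB3, a pseudokinase induced by both factors, gave 6.17, 6.18 and 5.95 in BL-8040 tumours and 6.20, 6.18 and 5.99 in controls, a difference of -0.02 ± 0.09 (SE; limma adjusted p = 0.956). Replicate 3 was the lowest array in each group. CHAC1, which degrades glutathione, differed by 0.02 (95% interval from -0.19 to 0.22). The regulatory subunits of the phosphatase that reverses the PERK mark pointed opposite ways: PPP1R15A, the stress-induced one also called GADD34, by -0.15 ± 0.08 and PPP1R15B, the constitutive one, by 0.06 ± 0.07 (SE; limma adjusted p of 0.676 and 0.841). PPP1R15A had the second smallest p of the members, and its control replicate 2, at 6.32, stood above the other 5 arrays, which lay between 5.99 and 6.13.

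The folding machinery of the ER lumen was likewise overlapping between groups. HSPA5, the chaperone BiP that also holds the sensors inactive, gave 10.67, 10.81 and 10.91 in BL-8040 tumours and 10.83, 10.89 and 10.78 in controls. The treated tumours again held both the lowest and the highest value, and the difference of -0.04 had a 95% interval from -0.22 to 0.15 (limma adjusted p = 0.914). HSP90B1, the ER chaperone GRP94, gave 11.21, 11.28 and 11.32 in BL-8040 tumours and 11.22, 11.25 and 11.14 in controls, a difference of 0.07 ± 0.07 (SE; limma adjusted p = 0.814). DNAJB9, a BiP co-chaperone that IRE1 and XBP1 induce, gave 5.94, 5.96 and 5.81 in BL-8040 tumours and 5.85, 6.08 and 5.64 in controls. The controls spanned the treated values, and the difference was 0.05 ± 0.11 (SE; limma adjusted p = 0.916).

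The other chaperones and co-chaperones differed by 0.09 (DNAJB11), 0.09 (SDF2L1), 0.04 (HYOU1, a nucleotide exchange factor of BiP) and -0.03 (DNAJC3). DNAJB11 averaged 8.90 ± 0.01 in BL-8040 tumours and 8.81 ± 0.08 in control tumours (SD, n = 3 each). Its treated values ran from 8.89 to 8.92, and control replicate 1, at 8.89, overlapped them. The measured disulfide isomerases PDIA4, PDIA6 and P4HB differed by 0.09, 0.03 and -0.02. The dimmer of the 2 P4HB probe sets, which the rule passed over, differed by 0.05. The lectin chaperones of glycoprotein folding, CALR and CANX, differed by 0.04 and 0.06, and the ER stress proteins that can be secreted, CRELD2 and MANF, by 0.09 and 0.01. The adjusted p of these 11 genes was 0.744 or more in limma.

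In ER degradation, HERPUD1, a membrane scaffold of the degradation complex induced by several branches, gave 8.98, 8.87 and 8.60 in BL-8040 tumours and 8.57, 8.80 and 8.67 in controls. Its 2 highest values were treated ones, but BL-8040 replicate 3 lay below 2 of the controls (difference 0.13 ± 0.11, SE; limma adjusted p = 0.749). Without that array the HERPUD1 difference was 0.24, and with each array left out in turn it ran from 0.05 to 0.24. The ubiquitin ligase SYVN1 and its partner SEL1L stood at 0.936 and 0.938 times the control level, DERL1 at 0.975 times and DERL2 at 1.07 times (both derlins form part of the exit channel), and EDEM1, which marks misfolded glycoproteins, at 1.05 times, with limma adjusted p of 0.740 or more. SEC61B, a subunit of the channel through which proteins enter the ER, had the smallest p and the largest negative difference of all members: 9.33, 9.20 and 9.10 in BL-8040 tumours and 9.29, 9.43 and 9.43 in controls. BL-8040 replicate 1 overlapped the controls, and the difference of -0.18 had a 95% interval from -0.37 to 0.02 (limma adjusted p = 0.646). ATF5, PPP1R15A, DNAJB11 and SEC61B were singled out for their values.

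**Figure D2:**
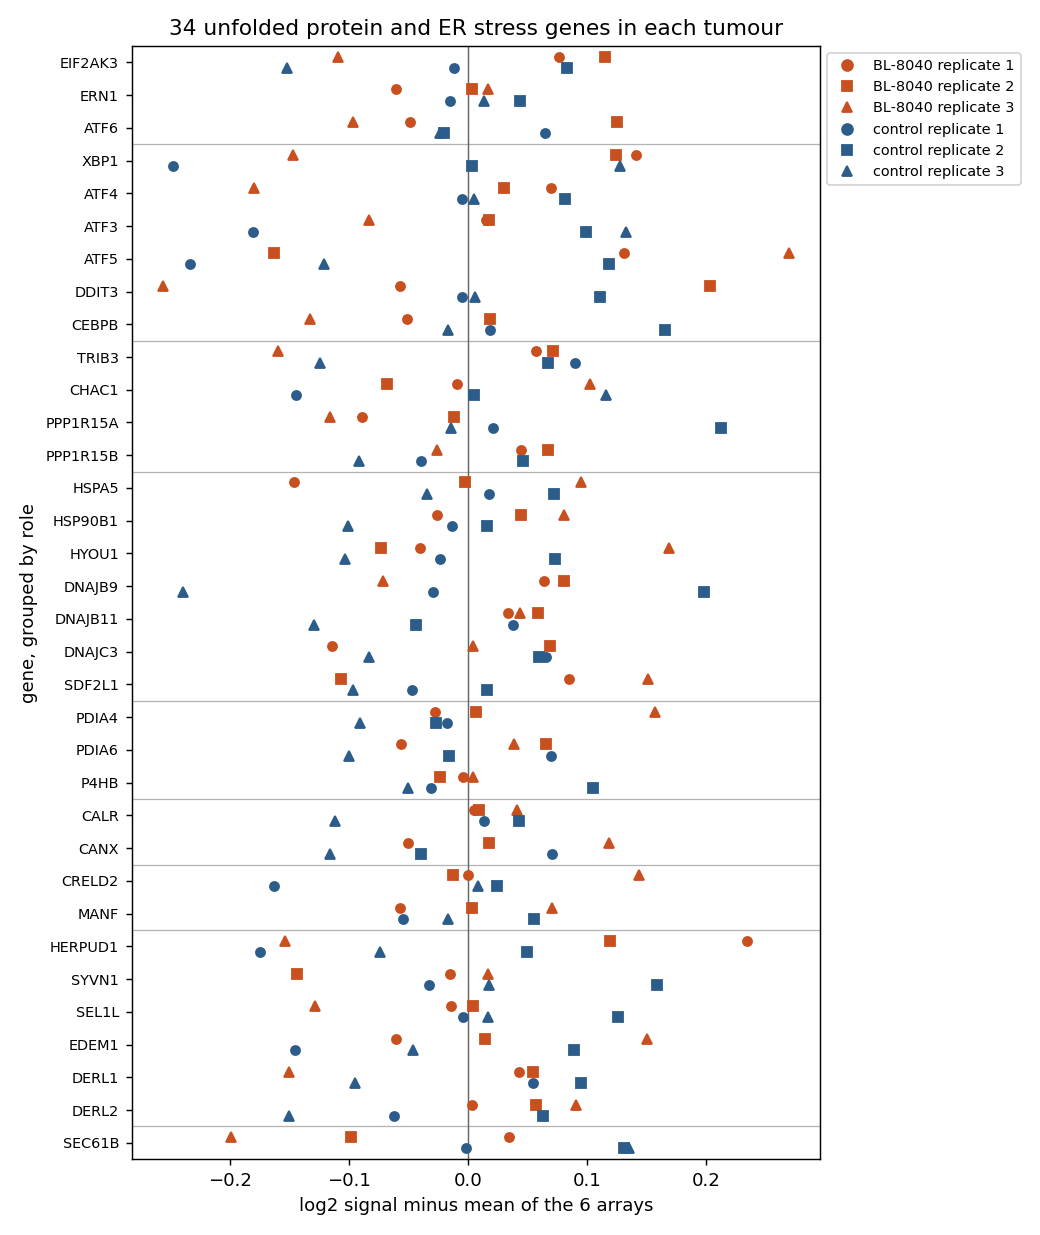
Log2 signal of each member in each tumour, as its deviation from the gene's mean over the 6 arrays; colours give the group, symbols the replicate number, and grey lines separate the roles. Orange and blue symbols overlap in all 34 genes. The orange triangle (BL-8040 replicate 3) is the rightmost symbol in 8 and the leftmost in 0 of 14 rows of chaperones, isomerases, lectins and secreted proteins. It is the rightmost in 1 and the leftmost in 6 of 13 rows of sensors, factors and effectors. In 7 rows of degradation and entry genes it is the rightmost in 2 and the leftmost in 3. Over all genes this array was the highest in 16.3% and the lowest in 30.5%. These classes were pooled after the values were seen.

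The members varied between tumours with a median range over the 6 arrays of 0.256 log2 units. BL-8040 replicate 3, the array that stood apart most over all genes (median correlation with the other arrays 0.994, against 0.996 for each of the rest), held the highest value of 11 members and the lowest of 9; over all genes it held the highest of 16.3% and the lowest of 30.5%. By role, in 3 classes pooled after the values were seen, the counts of this array among the treated arrays differed; over all genes it was the highest treated array in 30.8% and the lowest in 45.5%. Of the 14 chaperones, isomerases, lectins and secreted proteins, BL-8040 replicate 3 was the highest of the treated arrays in 10 and the lowest in 1 (DNAJB9). Of the 13 sensors, factors and branch effectors it was the highest of the treated arrays in 3 (ERN1, ATF5 and CHAC1). It was the lowest of them in 10, among them ATF4, DDIT3, XBP1 and TRIB3. Of the 7 degradation and entry genes it was the highest in 3 and the lowest in 4. The median deviation of the 14 folding genes was -0.03, 0.01 and 0.08 in BL-8040 replicates 1, 2 and 3, against -0.02, 0.03 and -0.10 in the controls. That of the 13 sensors, factors and effectors was 0.02, 0.03 and -0.11 in BL-8040 tumours, against -0.01, 0.08 and -0.01 in the controls. That of the 7 degradation and entry genes was 0.003, 0.01 and -0.13 in BL-8040 tumours, against -0.03, 0.10 and -0.05 in the controls. Control replicate 3 had the lowest value of 9 of the 14 folding genes, beside 17.5% of all genes. Control replicate 2 had the lowest value of 0 of the 34 members, beside 12.3% of all genes.

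In the same array, transcripts induced by low oxygen were low. The median deviation of 23 hypoxia genes was -0.09, 0.12 and -0.39 in BL-8040 replicates 1, 2 and 3, against 0.01, 0.28 and 0.11 in the controls. A lower mean after BL-8040 was found in 23 of 23, beside 58.5% of all genes. These means include BL-8040 replicate 3, and no count was taken without it. The median deviation of BL-8040 replicate 2 lay above those of control replicates 1 and 3. In limma, 0 of the 23 had an adjusted p under 0.05. At an unadjusted limma p under 0.05, 4 were lower, beside 5.08% of all genes. Groups did not overlap in 1, which was lower, beside 9.05% of all genes. Over all genes the median deviation lay between -0.03 and 0.02. The part of hypoxia in the values of the factor genes was not tested.

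**Figure D3:**
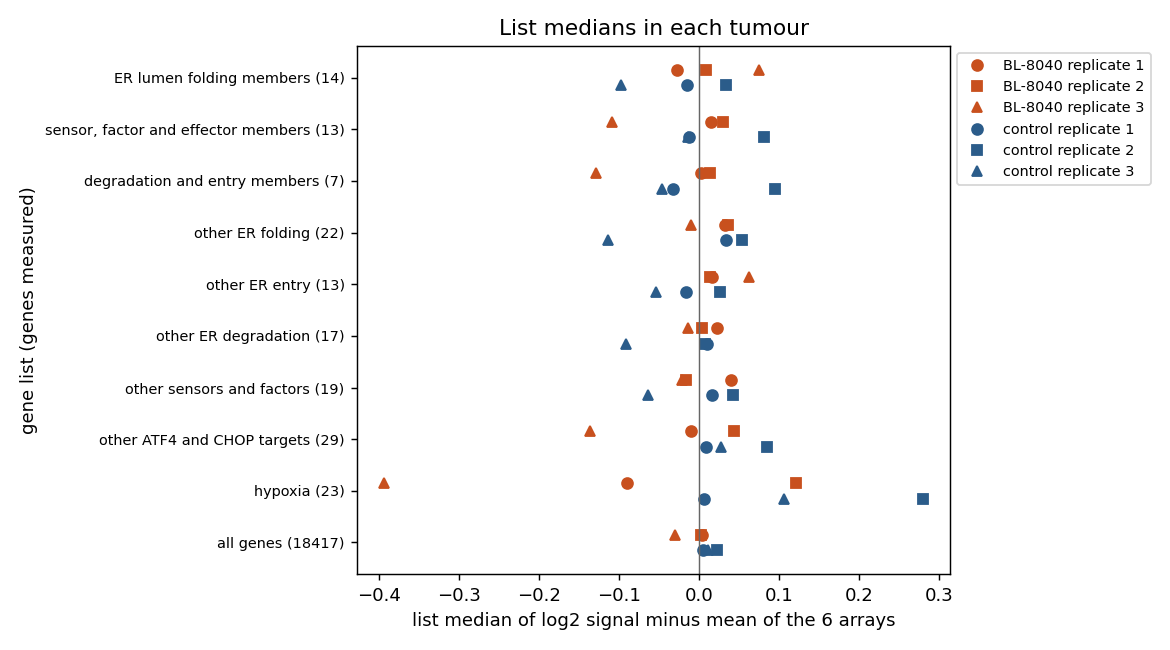
Median, over the genes of each list, of the log2 signal minus the gene's mean over the 6 arrays, for each tumour; colours give the group and symbols the replicate number. BL-8040 replicate 3 is at 0.08 for the folding members, at -0.11 for the sensors, factors and effectors and at -0.13 for degradation and entry members. These member classes were pooled after the values were seen. In the further lists it is at -0.01 for folding, 0.06 for entry, -0.01 for degradation and -0.02 for sensors and factors. It is at -0.14 for the ATF4 and CHOP targets and at -0.39 for the hypoxia list, while all genes stay between -0.03 and 0.02.

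A further 105 genes of the same pathway were listed by function, also with earlier results of these data known, and 100 of them were measured. In limma, 0 had an adjusted p under 0.05; at an unadjusted p under 0.05, 2 were higher and 2 lower, beside 2.64% and 5.08% of all genes. Their median difference was -0.003, with 48 higher and 52 lower. Groups did not overlap in 10 genes that were higher and 7 that were lower, beside 4.93% and 9.05% of all genes. By list, 11 of 22 further folding genes, 9 of 13 genes of protein entry into the ER, 12 of 17 degradation genes and 9 of 19 sensors and factors were higher, with median differences of 0.00, 0.04, 0.05 and -0.01. Of 29 further targets of ATF4 and CHOP, 7 were higher and 22 lower, with a median of -0.06; 58.5% of all genes were lower. Without BL-8040 replicate 3, 12 of these targets were higher and 17 lower, beside 54.6% of all genes lower, and under quantile normalization 4 were higher and 25 lower, beside 61.3%. That list's median deviation was -0.01, 0.04 and -0.14 in BL-8040 replicates 1, 2 and 3, against 0.01, 0.09 and 0.03 in the controls, with BL-8040 replicate 3 the lowest of the 6. In the other further lists this array did not repeat the contrast between the member classes: its median deviation was -0.01 in the folding genes and -0.02 in the sensors and factors, beside -0.03 over all genes, and 0.06 in the entry and -0.01 in the degradation genes. Of the ATF4 and CHOP targets, 2 also belong to the hypoxia list (DDIT4 and STC2).

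The pathway genes with an unadjusted p under 0.05 were a nucleotide exchange factor of BiP, a glycoprotein folding sensor, a stress hormone and a serine synthesis enzyme. SIL1, the exchange factor, had signals of 6.93, 6.98 and 7.04 in BL-8040 tumours and of 6.74, 6.85 and 6.72 in controls. UGGT2, which reglucosylates unfolded glycoproteins, gave 7.25, 7.20 and 7.28 in BL-8040 tumours and 7.14, 6.94 and 6.96 in controls. All treated values of both genes lay above all controls, by 0.22 ± 0.07 and 0.23 ± 0.08 on average (SE; limma adjusted p = 0.644 for each, unadjusted p of 0.0163 and 0.0167). FGF21, a hormone induced by ATF4, gave 4.21, 3.98 and 3.91 in BL-8040 tumours and 4.25, 4.34 and 4.26 in controls, at a mean signal in percentile 21.5 of all genes. PHGDH, the first enzyme of serine synthesis, gave 10.20, 10.11 and 10.06 in BL-8040 tumours and 10.30, 10.30 and 10.27 in controls. All treated values of both genes lay below all controls, with differences of -0.25 ± 0.09 for FGF21 and -0.16 ± 0.07 for PHGDH (SE; limma adjusted p = 0.644 for each). None of the 4 passed the test after adjustment over all genes.

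**Figure D4:**
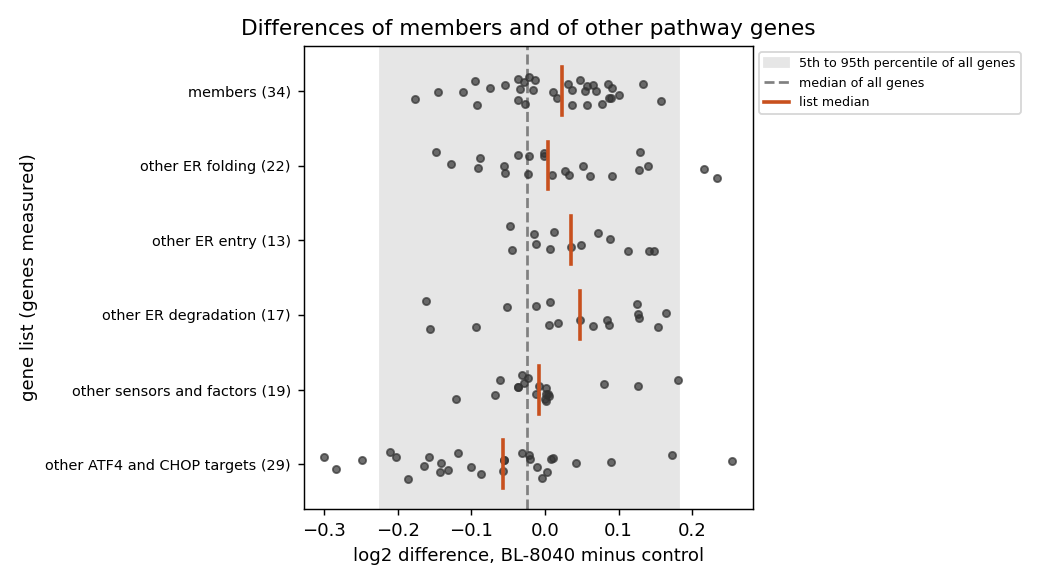
Log2 difference between BL-8040 and control tumours of each member and of each further pathway gene, by list (points, spread vertically for legibility), with list medians in orange; the grey band is the 5th to 95th percentile of all genes and the dashed line their median. The members lie between -0.18 and 0.16, with a median of 0.02.

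The tissue label was checked against marker genes. Of 11 measured neuroblastoma markers, 10 had a mean signal at or above the median gene, as did 7 of 7 fibroblast, 1 of 7 endothelial, 2 of 7 myeloid and 0 of 8 adrenal cortex markers. Median differences were -0.24 for the neuroblastoma list (10 of 11 lower, beside 58.5% of all genes), 0.10 for fibroblast, -0.08 for endothelial, 0.05 for myeloid and 0.03 for adrenal cortex markers. In limma, 0 of the 11 neuroblastoma markers had an adjusted p under 0.05. At an unadjusted limma p under 0.05, 1 was lower, beside 5.08% of all genes. Groups did not overlap in 2, which were lower, beside 9.05% of all genes. Higher means were found in 5 of 7 fibroblast, 3 of 7 endothelial, 5 of 7 myeloid and 6 of 8 adrenal cortex markers, beside 41.5% of all genes. Groups of 1 endothelial and 1 myeloid marker did not overlap and were higher, beside 4.93% of all genes. Those of 3 endothelial markers did not overlap and were lower, beside 9.05%. In limma, 0 markers of these lists had an adjusted p under 0.05. The neuroblastoma median deviation was -0.04, 0.07 and -0.21 in BL-8040 replicates 1, 2 and 3, against 0.13, 0.24 and -0.02 in controls; its part in the pathway values was not tested. The array is made for human transcripts, and how much mouse RNA it read was not measured.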

How the data were processed

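The authors deposited 1 table of log2 signals, 1 column per array and 33297 probe sets, from the Affymetrix Human Gene 1.0 ST platform. The submitters' processing notes name Partek 6.6; they give neither background correction, normalization nor summarization. The log2 scale was read from the values (1.08 to 13.2). Detection calls and scanner files were not used here.

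Probe sets with exactly 1 platform symbol (19460) were kept, with the brightest by 6-array mean per gene, giving 18417 genes. Groups came from the sample titles. BL-8040 and control arrays (3 each) were compared in R 4.3.3 with limma 3.58.1 (lmFit, eBayes; two-sided, no block), with Benjamini-Hochberg adjustment over all 18417 genes; called means adjusted p under 0.05. The script was tested on simulated data. Precision is set by the number of arrays: the median half-width of the 95% intervals was 0.187 log2 units in the members. Per the design text the arrays are of separate mice.

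All members are named, with every array's value for 11 chosen by role and for SEC61B; of the further lists, up to 3 genes at an unadjusted p under 0.05. Members, lists and rules were chosen with earlier results of these data known. Human sequences were not used here. The alternatives tried are given in the closing section.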

Additional observations from a re-analysis of the deposited data

How the results depend on the processing

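Under all alternatives run, 0 genes, 0 members and 0 further pathway genes were called: signal filters at the median gene and at log2 6 (30 members left), the mean of probe sets, quantile normalization, median centring, trend and robust moderation, array weights, the replicate block, an adjusted p under 0.1, and each array left out. With 1 array left out, members higher numbered from 15 to 23 and members lower from 11 to 19, the members' median difference lay between -0.009 (without control replicate 3) and 0.04, and that of the further genes between -0.03 and 0.02. Members whose groups do not overlap numbered 0 with all arrays, 1 (2.94%, beside 15% of all genes) under quantile normalization, and from 1 to 7 (from 2.94% to 20.6%, beside from 21.5% to 29.5% of all genes) with 1 array left out, where fewer arrays separate more easily. The sign of 17 members held whichever array was left out, and that of 17 turned. Differences of those that turned ran from -0.0082 to 0.12 for EIF2AK3, from -0.080 to 0.031 for ATF6, from -0.026 to 0.17 for XBP1, from -0.10 to 0.023 for ATF4, from -0.13 to 0.024 for ATF3 and from -0.19 to 0.036 for DDIT3. They ran from -0.089 to 0.053 for TRIB3, from -0.052 to 0.078 for CHAC1, from -0.093 to 0.028 for HSPA5, from -0.038 to 0.082 for HYOU1, from -0.060 to 0.16 for DNAJB9 and from -0.076 to 0.023 for DNAJC3. The others ran from -0.011 to 0.074 for PDIA6, from -0.045 to 0.033 for P4HB, from -0.0093 to 0.068 for CALR, from -0.022 to 0.042 for MANF and from -0.093 to 0.030 for DERL1. Using the mean of probe sets turned ATF4 to 0.029 and P4HB to 0.018. Quantile normalization turned CANX to -4.4e-05 and MANF to -0.0025. Array weights turned ATF6 to 0.0024, TRIB3 to 0.011, CHAC1 to -0.0054, HYOU1 to -0.020 and MANF to -0.021. The cause was not tested. Same-numbered arrays of the 2 groups deviated together with r of -0.04, 0.02 and 0.08 over all genes, and differently numbered ones with r from -0.09 to 0.07. These values show no pairing of the mice by number, but so few arrays cannot exclude it. The replicate block, which by construction leaves every difference as it is (median 0.02), gave 0 calls and a smallest limma adjusted p of a member of 0.655.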
